A study of Homo sapiens with 12 samples.

Results

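The Hippo pathway genes examined here were 10 genes out of the 60663 in the count table: the coactivators YAP1 and WWTR1, the DNA-binding partners TEAD1 and TEAD4, the target genes CCN1, CCN2, ANKRD1, AMOTL2 and AXL, and the kinase LATS2. They were taken from a list of gene symbols, each matched to its Ensembl gene ID. All 10 passed the filter on low counts, which left 20714 genes for testing. The genes were chosen by pathway role and by JQ1 fold changes of these libraries that were already known, in which CCN2 was among the largest rises in VHL-negative cells. The difference of CCN2 in that comparison, and the difference between the lines computed from it, are therefore given with no test and enter no count of calls. The p-values of the other genes come from a fit across the whole table and describe each gene alone. They do not allow for the choice of these genes with results known.

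RNA was sequenced from RCC4, a human clear cell renal carcinoma cell line. The VHL-negative cells carry a loss of VHL, the tumour suppressor whose product marks hypoxia-inducible factors for breakdown, while VHL-positive cells had VHL put back into the same line. JQ1, an inhibitor that displaces BET bromodomain proteins from chromatin, was given at 5 µM, and DMSO was its solvent control. The groups were VHL-negative cells with JQ1, VHL-negative cells with DMSO, VHL-positive cells with JQ1 and VHL-positive cells with DMSO, with 3 libraries each. All cells shared a high-glucose medium with geneticin. The VHL construct, whether the VHL-positive cells are 1 clone or a pool, and the time of treatment are not given in the labels. Nothing says that replicates were separate cultures, so the p-values measure only the spread between these libraries, which may be technical.

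The Hippo pathway is a kinase cascade in which the MST kinases activate the LATS kinases, which phosphorylate YAP and TAZ (the product of WWTR1) and hold them in the cytoplasm. Unphosphorylated YAP and TAZ enter the nucleus, bind TEAD transcription factors and raise the transcription of genes such as CCN1, CCN2, ANKRD1, AMOTL2 and AXL. LATS2 and AMOTL2 are also targets that restrain YAP in return. RNA levels do not measure the phosphorylation or the location of YAP and TAZ.

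The promoter sequences of the target genes show where the letters bound by TEAD lie relative to the transcription start. RefSeq windows of GRCh38.p14, taken as the 250 bases before the start, were matched for 7 of the 10 genes by symbol and held 10 windows. CCN1, TEAD1 and TEAD4 had no entry. The TEAD core GGAATG, searched on both strands, was found in 5 windows of 5 genes, namely CCN2, ANKRD1, AMOTL2, AXL and YAP1. Of all 34943 windows of the same length, 11.9% held the core at least once. In the windows below, capitals mark the TEAD core (CATTCC on the other strand) and an AP-1 match.
CCN2, chr6:131951373-131951622, minus strand: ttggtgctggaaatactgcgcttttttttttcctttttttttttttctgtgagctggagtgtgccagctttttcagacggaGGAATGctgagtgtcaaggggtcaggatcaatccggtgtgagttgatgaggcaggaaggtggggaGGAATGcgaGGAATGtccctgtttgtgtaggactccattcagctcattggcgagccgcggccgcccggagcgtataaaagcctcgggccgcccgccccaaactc
AXL, second start, chr19:41226505-41226754, plus strand: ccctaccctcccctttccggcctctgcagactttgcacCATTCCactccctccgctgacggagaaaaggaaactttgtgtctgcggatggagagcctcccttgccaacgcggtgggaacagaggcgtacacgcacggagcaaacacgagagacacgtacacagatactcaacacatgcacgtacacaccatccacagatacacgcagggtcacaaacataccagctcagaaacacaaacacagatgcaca
ANKRD1, chr10:90921276-90921337, minus strand: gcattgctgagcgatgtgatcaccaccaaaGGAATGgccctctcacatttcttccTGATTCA
ANKRD1, chr10:90921198-90921227, minus strand: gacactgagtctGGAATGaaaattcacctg
AMOTL2, second start, chr3:134374499-134374528, minus strand: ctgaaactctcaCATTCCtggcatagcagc
The CCN2 window held 3 cores, beginning 169, 104 and 95 bases before the start, and 0.083% of all windows held at least 3. ANKRD1 held 2 cores, 220 and 128 bases before the RefSeq start, and 0.942% of all windows held at least 2. Of the 250 bases of the ANKRD1 window, 189 lie inside exons of GENCODE 29, which starts the gene further upstream, and the core 128 bases before the RefSeq start is among them. The ANKRD1 window also held the AP-1 letters TGANTCA (N is any base), which read as a match on both strands and occurred in 6.59% of all windows. AMOTL2 and AXL each held 1 core in the window of their second start, inside the gene, and none in that of their first. These matches are letters in a window, and no binding was measured here.

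The total count per library ran from 15452949 to 32502310, and mitochondrial transcripts took 9.90 to 25.3% of counts. VHL, the labelled gene, stood at 32.7 ± 2.39 CPM (the CPM unit here is per TMM-scaled library size; SD, n = 3 as in every group) in VHL-negative cells with JQ1. It stood at 26.4 ± 1.65 CPM in VHL-negative cells with DMSO, 212 ± 14.0 CPM in VHL-positive cells with JQ1 and 70.3 ± 7.62 CPM in VHL-positive cells with DMSO. VHL-positive groups thus also differed in VHL RNA between JQ1 and DMSO, and its part in the values below was not tested. Renal tubule and carcinoma markers summed to 2142 to 2675 CPM in every library. VIM held the largest part of that sum, averaging 802 to 1532 CPM per group. PAX8 averaged 274 to 626 CPM per group, but other single markers differed more. CDH16 averaged 3.31 CPM in VHL-negative JQ1 and 145 CPM in VHL-positive DMSO cells. CA9 averaged 83.5 CPM in VHL-negative DMSO and 0.126 CPM in VHL-positive DMSO cells. Endothelial markers summed to at most 10.1 CPM, leukocyte markers to at most 4.51 CPM, and fibroblast and pericyte markers to at most 29.9 CPM. In bulk RNA, fewer cells of a kind and less RNA per cell cannot be told apart.

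With JQ1, CCN1, CCN2, ANKRD1 and AMOTL2 were higher than with DMSO in both lines, while AXL and the coactivator gene WWTR1 were lower in both. YAP1 fell in VHL-negative cells. TEAD1, TEAD4 and LATS2 did not pass the test in either line. A gene passed at an adjusted p under 0.05 in the quasi-likelihood test of edgeR, with p-values adjusted by Benjamini-Hochberg over all 20714 genes. In VHL-negative cells 3 of the 9 genes other than CCN2 were called higher, beside 14.6% of all genes tested, and 3 lower, beside 17.5%. In VHL-positive cells 4 of the 10 were called higher, beside 15.3% of all genes, and 2 lower, beside 16.5%. Nothing is read from these counts, since the genes were listed with results known. With library sizes scaled by total counts alone, calls over all genes in VHL-positive cells split into 2069 higher and 3998 lower, against 3167 and 3422 with TMM scaling.

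**Figure D1:**
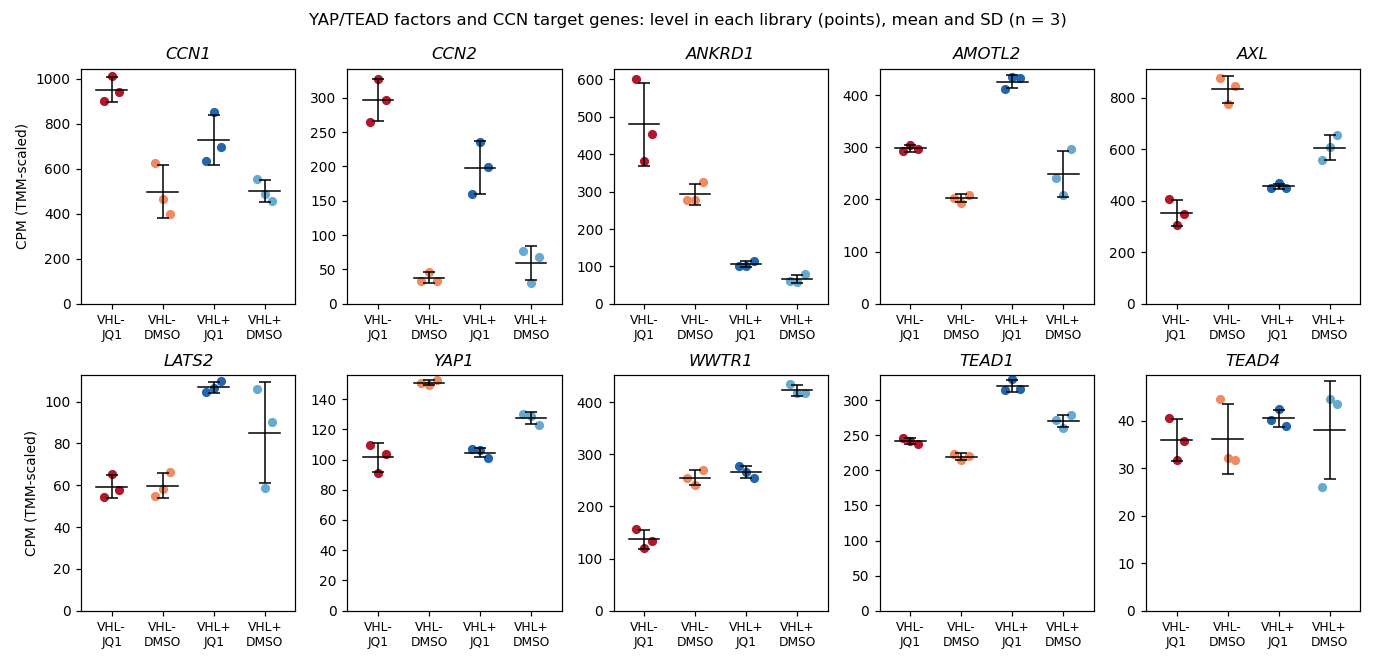
Level of each of the 10 genes in every library, in CPM on TMM-scaled library sizes, with 1 panel per gene; points are libraries, and the lines are the mean and SD of 3 libraries for VHL-negative (VHL-) and VHL-positive (VHL+) cells. CCN2 lies between 159 and 328 CPM in all 6 JQ1 libraries and between 30.6 and 77.0 CPM in all 6 DMSO libraries.

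The coactivator YAP1 (ENSG00000137693, GRCh38 chromosome 11, 102110461 to 102233423) had 109, 91.1 and 104 CPM in VHL-negative JQ1 libraries, against 151, 149 and 153 CPM in VHL-negative DMSO libraries. It had 107, 106 and 101 CPM in VHL-positive JQ1 libraries, against 130.4, 129 and 123 CPM in VHL-positive DMSO libraries. All JQ1 libraries lay below all DMSO libraries of their line. The fall in VHL-negative cells was log2 -0.57 (standard error 0.111, adjusted p = 0.000994). In VHL-positive cells the value was log2 -0.28 (standard error 0.111), which missed the threshold (adjusted p = 0.063). It passed there with total counts alone (log2 -0.40, adjusted p = 0.0233), in DESeq2 (log2 -0.28, adjusted p = 0.0256) and under 3 further settings.

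WWTR1 (ENSG00000018408, chromosome 3, 149517235 to 149736714), which encodes the coactivator TAZ, had 157, 120.4 and 134 CPM in VHL-negative JQ1 libraries, against 254, 241 and 270.2 CPM in VHL-negative DMSO libraries. Its VHL-positive libraries had 277, 265 and 254 CPM with JQ1, against 435, 416 and 417 CPM with DMSO. The groups did not overlap within either line, and the VHL-negative DMSO libraries overlapped the VHL-positive JQ1 libraries. WWTR1 fell in VHL-negative cells (log2 -0.90, standard error 0.126, adjusted p = 6.24e-05) and in VHL-positive cells (log2 -0.67, standard error 0.125, adjusted p = 0.000733). Both falls passed whichever of the 12 libraries was left out. Of the exon length, 9.45% in WWTR1, 9.97% in YAP1 and 8.34% in CCN2 is shared with genes on the other strand. The sources used here do not state the strand setting of the counting.

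TEAD1 (ENSG00000187079, chromosome 11, 12674591 to 12944483), a DNA-binding partner of YAP and TAZ, varied little among libraries of a group. It had 246, 242 and 238 CPM in VHL-negative JQ1 libraries, against 224, 215 and 221 CPM in VHL-negative DMSO libraries. The VHL-positive libraries had 315, 329 and 316 CPM with JQ1, against 271, 261 and 279 CPM with DMSO. The JQ1 libraries lay above the DMSO libraries in each line, but the test was not passed (log2 0.14, adjusted p = 0.351 in VHL-negative cells, and log2 0.24, adjusted p = 0.0993 in VHL-positive cells). DESeq2 called the VHL-positive value (log2 0.25, adjusted p = 0.00562).

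TEAD4 (ENSG00000197905, chromosome 12, 2959330 to 3040673), another member of the TEAD family, had 40.6, 31.8 and 35.7 CPM in VHL-negative JQ1 libraries, against 44.7, 32.1 and 31.8 CPM in VHL-negative DMSO libraries. In VHL-positive cells it had 40.2, 42.5 and 39.0 CPM with JQ1, against 26.1, 44.6 and 43.6 CPM with DMSO. The groups overlapped in both lines. Its 95% intervals for JQ1 against DMSO ran from log2 -0.37 to 0.36 in VHL-negative cells and from log2 -0.28 to 0.46 in VHL-positive cells. Per kilobase of exon, TEAD1 stood at 23.5 CPM and TEAD4 at 15.9 CPM in VHL-negative JQ1 cells, while TEAD2 and TEAD3 stood at 1.44 and 6.21 CPM.

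CCN2 (ENSG00000118523, chromosome 6, 131948176 to 131951373) encodes connective tissue growth factor, a secreted matrix protein and a standard readout of YAP and TAZ. It had 265, 328 and 296 CPM in VHL-negative JQ1 libraries, against 32.7, 47.0 and 33.7 CPM in VHL-negative DMSO libraries. Its VHL-positive libraries had 159, 236 and 199 CPM with JQ1, against 77.0, 30.6 and 68.7 CPM with DMSO. All 6 JQ1 libraries lay above all 6 DMSO libraries. The fold was 7.83 in VHL-negative cells (log2 2.97, standard error 0.274) and 3.37 in VHL-positive cells (log2 1.75, standard error 0.262, adjusted p = 0.000122). Replicate 2 of the VHL-positive DMSO libraries held the lowest CCN2 level of its group, and without it the VHL-positive value was log2 1.46.

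CCN1 (ENSG00000142871, chromosome 1, 85580761 to 85583962), which encodes the related matrix protein CYR61, had 902, 1013 and 939 CPM in VHL-negative JQ1 libraries, against 627, 464 and 399.9 CPM in VHL-negative DMSO libraries. The VHL-positive libraries had 635, 851 and 695 CPM with JQ1, against 554, 488 and 458 CPM with DMSO. The JQ1 libraries lay above the DMSO libraries in each line. CCN1 rose 1.91-fold in VHL-negative cells (log2 0.94, standard error 0.172, adjusted p = 0.00063) and 1.45-fold in VHL-positive cells (log2 0.54, standard error 0.171, adjusted p = 0.0239). The VHL-positive call was lost without replicate 2 of the JQ1 libraries (log2 0.42, adjusted p = 0.119), replicate 2 of the DMSO libraries (log2 0.54, adjusted p = 0.0519) or replicate 3 of the DMSO libraries (log2 0.49, adjusted p = 0.0854) of that line.

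ANKRD1 (ENSG00000148677, chromosome 10, 90912096 to 90921276), an ankyrin repeat protein of muscle and stressed epithelium, had 602, 383 and 455 CPM in VHL-negative JQ1 libraries, against 277, 277 and 325 CPM in VHL-negative DMSO libraries. In VHL-positive cells it had 101, 101 and 115 CPM with JQ1, against 61.8, 57.2 and 79.4 CPM with DMSO. None of the 4 groups overlapped another. The rise was 1.64-fold in VHL-negative cells (log2 0.71, standard error 0.168, adjusted p = 0.00417) and 1.59-fold in VHL-positive cells (log2 0.67, standard error 0.169, adjusted p = 0.00647).

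AMOTL2 (ENSG00000114019, chromosome 3, 134355874 to 134375479), an angiomotin family scaffold that binds YAP, had 293, 305 and 296 CPM in VHL-negative JQ1 libraries, against 203, 194 and 209 CPM in VHL-negative DMSO libraries. Its VHL-positive libraries had 411, 434 and 432 CPM with JQ1, against 242, 208 and 296 CPM with DMSO. The groups did not overlap within either line. AMOTL2 rose 1.47-fold in VHL-negative cells (log2 0.56, standard error 0.133, adjusted p = 0.00445) and 1.71-fold in VHL-positive cells (log2 0.78, standard error 0.133, adjusted p = 0.000383).

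AXL (ENSG00000167601, chromosome 19, 41219203 to 41261766), the receptor tyrosine kinase for GAS6, was the target gene of the list that moved the other way. It had 405, 304 and 347 CPM in VHL-negative JQ1 libraries, against 875, 774 and 846 CPM in VHL-negative DMSO libraries. The VHL-positive libraries had 449.9, 468 and 449 CPM with JQ1, against 557, 608 and 653 CPM with DMSO. Every JQ1 library lay below every DMSO library. AXL fell 2.36-fold in VHL-negative cells (log2 -1.24, standard error 0.138, adjusted p = 7.14e-06) and 1.33-fold in VHL-positive cells (log2 -0.41, standard error 0.136, adjusted p = 0.0296). When each of the 12 libraries was left out in turn, the VHL-positive call held in 6 fits. It was lost without replicate 3 of the VHL-negative JQ1 libraries, any VHL-positive JQ1 library, or replicate 2 or 3 of the VHL-positive DMSO libraries, with a log2 fold change of -0.47 to -0.35 over the 12 fits and an adjusted p of up to 0.127.

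LATS2 (ENSG00000150457, chromosome 13, 20973032 to 21061547), the kinase that phosphorylates YAP and TAZ, had 54.6, 65.3 and 57.8 CPM in VHL-negative JQ1 libraries, against 54.9, 58.0 and 66.5 CPM in VHL-negative DMSO libraries. In VHL-positive cells it had 105, 107 and 109.7 CPM with JQ1, against 106, 58.7 and 90.4 CPM with DMSO. The groups overlapped in both lines. The log2 fold change was -0.02 (95% interval -0.35 to 0.32) in VHL-negative cells and 0.33 (95% interval -0.004 to 0.66, adjusted p = 0.157) in VHL-positive cells. Without replicate 1 of the VHL-positive DMSO libraries, the second value passed (log2 0.52, adjusted p = 0.031).

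**Figure D2:**
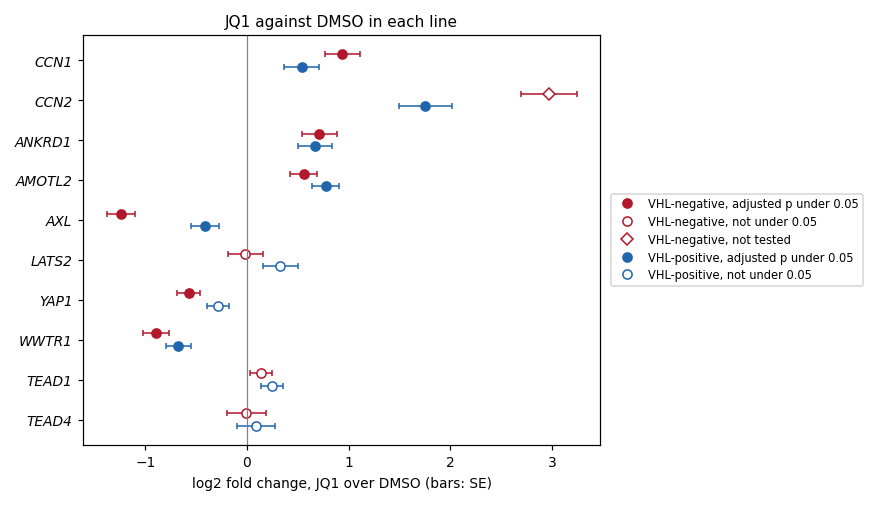
Log2 fold change of JQ1 over DMSO for the 10 genes in VHL-negative and VHL-positive cells (x axis), with standard errors as bars, filled points at an adjusted p under 0.05 and a diamond for CCN2 in VHL-negative cells, which was not tested. CCN2 has the largest values, 2.97 and 1.75, and AXL in VHL-negative cells the lowest, -1.24.

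VHL status was compared within each treatment. VHL-negative cells held more ANKRD1 and less WWTR1, LATS2 and TEAD1 RNA than VHL-positive cells under both treatments, while AXL was lower under JQ1 and higher under DMSO. Under JQ1, 1 of the 10 genes was called higher in VHL-negative cells, beside 19.7% of all genes tested, and 5 lower, beside 21.2%. Under DMSO, 2 were called higher, beside 14.8%, and 3 lower, beside 15.9%. With total counts alone, calls over all genes under JQ1 split into 5152 higher and 3148 lower, against 4082 and 4397 with TMM scaling.

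ANKRD1 averaged 480.0 ± 111 CPM in VHL-negative and 105.5 ± 7.97 CPM in VHL-positive cells under JQ1, a 4.55-fold difference (SD, n = 3 each, log2 2.19, standard error 0.175, edgeR adjusted p = 7.63e-08). Under DMSO it averaged 293 ± 27.9 CPM in VHL-negative and 66.1 ± 11.7 CPM in VHL-positive cells, a 4.42-fold difference (log2 2.15, standard error 0.175, adjusted p = 9.2e-08). The VHL difference of ANKRD1 exceeded its JQ1 difference in size, and its calls and direction held whichever library was left out.

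WWTR1 averaged 137 ± 18.6 CPM in VHL-negative and 265 ± 11.4 CPM in VHL-positive cells under JQ1 (SD, n = 3 each, log2 -0.95, standard error 0.126, edgeR adjusted p = 2.27e-05). Under DMSO it averaged 255 ± 14.7 CPM in VHL-negative and 423 ± 10.7 CPM in VHL-positive cells (log2 -0.73, standard error 0.125, adjusted p = 0.000309). The other coactivator gene, YAP1, differed by log2 -0.04 under JQ1 (adjusted p = 0.775) and log2 0.25 under DMSO (adjusted p = 0.108). The DMSO value of YAP1 passed in DESeq2 (log2 0.26, adjusted p = 0.0417) and among protein-coding genes only (log2 0.23, adjusted p = 0.0438).

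LATS2 averaged 59.2 ± 5.49 CPM in VHL-negative and 107 ± 2.57 CPM in VHL-positive cells under JQ1 (SD, n = 3 each, log2 -0.85, standard error 0.172, edgeR adjusted p = 0.000996). Under DMSO it averaged 59.8 ± 5.98 CPM in VHL-negative and 85.1 ± 24.2 CPM in VHL-positive cells (log2 -0.51, adjusted p = 0.0326), and the libraries overlapped there. The DMSO call was lost without replicate 3 of the VHL-negative JQ1 libraries, replicate 1 or 2 of the VHL-negative DMSO libraries, or replicate 1 or 3 of the VHL-positive DMSO libraries. Over those 12 fits its log2 fold change ran from -0.71 to -0.32 and its adjusted p reached 0.18. The DMSO call was also lost with total counts alone (log2 -0.45, adjusted p = 0.107) and with only the groups compared (log2 -0.53, adjusted p = 0.0777).

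TEAD1 was lower in VHL-negative cells under JQ1 (log2 -0.41, standard error 0.109, edgeR adjusted p = 0.00752) and under DMSO (log2 -0.30, standard error 0.109, adjusted p = 0.0467), with no overlap between the lines. The DMSO call of TEAD1 held in 2 of 12 fits with a library left out, those without replicate 1 or 2 of the VHL-negative JQ1 libraries, and its adjusted p reached 0.143. TEAD4 libraries overlapped between the lines under both treatments. AMOTL2 was lower in VHL-negative cells under JQ1 (log2 -0.51, standard error 0.133, adjusted p = 0.00581), while its DMSO value of log2 -0.30 missed the threshold (adjusted p = 0.104) and passed without replicate 2 of the VHL-positive DMSO libraries (log2 -0.40, adjusted p = 0.029). The JQ1 calls of TEAD1 and AMOTL2 were lost with total counts alone (log2 -0.25, adjusted p = 0.135 and log2 -0.35, adjusted p = 0.077). The DMSO call of TEAD1 was also lost with total counts alone (log2 -0.24, adjusted p = 0.175) and with DESeq2 size factors (log2 -0.30, adjusted p = 0.0511).

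AXL averaged 352 ± 50.5 CPM in VHL-negative and 455.5 ± 10.4 CPM in VHL-positive cells under JQ1 (SD, n = 3 each, log2 -0.37, standard error 0.136, edgeR adjusted p = 0.0385). Under DMSO it averaged 832 ± 51.9 CPM in VHL-negative and 606 ± 48.4 CPM in VHL-positive cells (log2 0.46, standard error 0.136, adjusted p = 0.0174). The order of the 4 AXL levels, with no overlap between neighbours, was thus VHL-negative DMSO, VHL-positive DMSO, VHL-positive JQ1 and VHL-negative JQ1. The call under JQ1 was lost without replicate 2 or 3 of the VHL-negative JQ1 libraries or any VHL-positive JQ1 library (adjusted p up to 0.153), and with total counts alone (log2 -0.22, adjusted p = 0.202). The call under DMSO was lost without replicate 1 of the VHL-negative DMSO libraries (log2 0.42, adjusted p = 0.0536) or replicate 1 of the VHL-positive DMSO libraries (log2 0.40, adjusted p = 0.0698).

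The matrix protein genes CCN1 and CCN2 did not pass between the lines, in comparisons that share the VHL-negative libraries on which CCN2 was chosen. That choice favours a higher JQ1 and a lower DMSO level of CCN2 in VHL-negative cells, so its p-values here are only descriptive. CCN1 differed by log2 0.39 under JQ1 (standard error 0.170, edgeR adjusted p = 0.08) and log2 -0.01 under DMSO (adjusted p = 0.976). CCN2 differed by log2 0.58 under JQ1 (standard error 0.255, adjusted p = 0.0795) and log2 -0.64 under DMSO (standard error 0.258, adjusted p = 0.0741). Replicate 2 of the VHL-positive DMSO libraries bore on the CCN2 values: without it they were log2 0.57 under JQ1 (adjusted p = 0.0124) and log2 -0.94 under DMSO (adjusted p = 0.00108). The DMSO value of CCN2 also passed without replicate 2 of the VHL-negative DMSO libraries (log2 -0.83, adjusted p = 0.0492). Under JQ1 both genes passed with total counts alone (CCN1 log2 0.55, adjusted p = 0.00916; CCN2 log2 0.75, adjusted p = 0.0395).

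**Figure D3:**
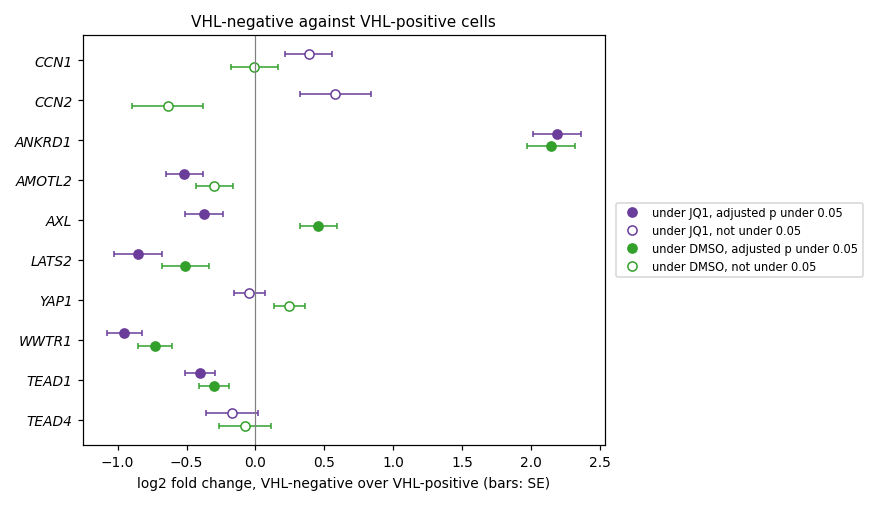
Log2 fold change of VHL-negative over VHL-positive cells for the 10 genes under JQ1 and under DMSO (x axis), with standard errors as bars and filled points at an adjusted p under 0.05. ANKRD1 stands at 2.19 and 2.15, and AXL lies on either side of 0, at -0.37 and 0.46.

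Whether JQ1 acted differently in the lines was tested as an interaction, the JQ1 effect in VHL-negative cells minus that in VHL-positive cells. AXL was the only one of the 9 genes other than CCN2 that passed in this fit, with a larger fall in VHL-negative cells (log2 -0.83, standard error 0.192, edgeR adjusted p = 0.0481). No gene was called higher and 1 was called lower, beside 0.497% and 0.71% of all genes tested. The AXL call held in 1 of 12 fits with a library left out, the fit without replicate 1 of the VHL-negative JQ1 libraries (adjusted p = 0.00626), and was lost without any other library (log2 -0.90 to -0.74, adjusted p up to 0.162). It was also lost with total counts alone (log2 -0.74, adjusted p = 0.07). Over all genes, total counts alone gave 112 higher and 87 lower, against 103 and 147 with TMM scaling.

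For CCN2 the same difference was log2 1.22 (standard error 0.362), with the larger JQ1 value in VHL-negative cells, and it is a description with no test. With a library left out the CCN2 difference ran from log2 0.96 to 1.502, the highest without replicate 2 and the lowest without replicate 1 of the VHL-positive DMSO libraries. CCN1 differed by log2 0.40 (95% interval -0.07 to 0.87). ANKRD1 differed by log2 0.04 (95% interval -0.42 to 0.51), and WWTR1 by log2 -0.22 (95% interval -0.57 to 0.12). Values this close to 0 do not show that the lines responded alike.

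Other genes of the pathway were taken from lists of targets, family members and regulators. These lists were drawn up with earlier results of these data known, so their counts and medians only describe. Tested genes of a list are named below for the smallest p in the VHL-negative JQ1 comparison or for the difference between the lines. Their p-values do not allow for that choice. Of 16 other YAP and TAZ target genes, 15 were tested, and FOXF2 had at most 1 count in any library. With JQ1, 4 rose, 6 fell and 5 did not pass in VHL-negative cells, where 14.6% of all genes tested were called higher and 17.5% lower, with a median log2 fold change of -0.20 against 0.03 over all genes. In VHL-positive cells 5 rose, 8 fell and 2 did not pass, where 15.3% of all genes were called higher and 16.5% lower, with a median of -0.51 against -0.03 over all genes.

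IGFBP3, a secreted binding protein of insulin-like growth factors, had 99.9, 71.5 and 79.5 CPM in VHL-negative JQ1 libraries, against 588, 446 and 533 CPM in VHL-negative DMSO libraries. It fell there (log2 -2.64, edgeR adjusted p = 3.95e-08) and in VHL-positive cells (log2 -2.96, adjusted p = 9.04e-09). GADD45A, a stress gene that slows the cell cycle, rose by log2 1.02 in VHL-negative and log2 1.07 in VHL-positive cells (adjusted p = 4.29e-05 and 3.32e-05). RBMS3, an RNA-binding protein gene, fell in VHL-negative cells (log2 -1.56, adjusted p = 1.74e-07) and in VHL-positive cells (log2 -0.93, adjusted p = 2.68e-05).

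F3, which encodes tissue factor, the starter of blood coagulation, had 36.9, 29.2 and 32.6 CPM in VHL-negative JQ1 libraries, against 124, 114 and 116 CPM in VHL-negative DMSO libraries. Its VHL-positive libraries had 9.97, 10.5 and 9.76 CPM with JQ1, against 13.8, 14.99 and 14.2 CPM with DMSO. The fall was larger in VHL-negative cells (difference log2 -1.33, standard error 0.171, edgeR adjusted p = 0.00117). TGFB2, a transforming growth factor gene, had 2.18, 2.31 and 1.78 CPM in VHL-positive JQ1 libraries, against 10.3, 11.1 and 13.8 CPM in VHL-positive DMSO libraries, and stayed under 0.7 CPM in every VHL-negative library. Its difference between the lines was log2 2.90 (standard error 0.487, adjusted p = 0.00931), and without replicate 3 of the VHL-negative JQ1 libraries it was log2 2.55 (adjusted p = 0.0724). Of the TGFB2 exon length, 26.6% is shared with another gene on the same strand. ASAP1, an ARF regulator, fell in VHL-positive cells (log2 -0.62, adjusted p = 0.00991), a call lost without replicate 1 of the VHL-positive JQ1 libraries (log2 -0.52, adjusted p = 0.065).

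**Figure D4:**
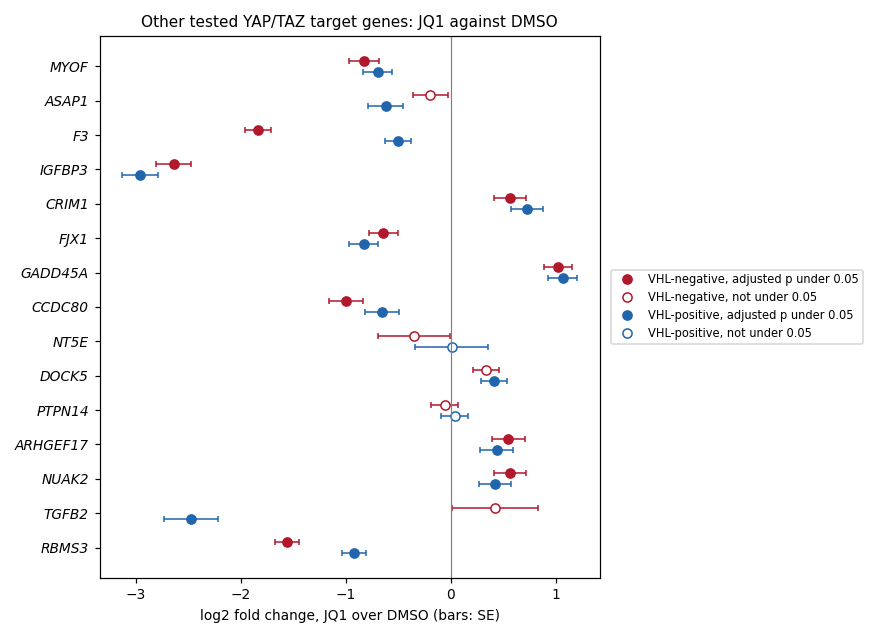
Log2 fold change of JQ1 over DMSO for the 15 tested YAP and TAZ target genes outside the 10 genes, in VHL-negative and VHL-positive cells (x axis), with standard errors as bars and filled points at an adjusted p under 0.05. IGFBP3 lies lowest, at -2.64 and -2.96, and GADD45A highest, at 1.02 and 1.07.

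Among the other CCN genes, CCN5, which lacks a domain that CCN1 and CCN2 have, fell with JQ1 while CCN1 and CCN2 were higher. It had 0.854, 0.834 and 0.583 CPM in VHL-negative JQ1 libraries, against 9.44, 5.44 and 5.10 CPM in VHL-negative DMSO libraries (log2 -3.13, edgeR adjusted p = 0.000486). The VHL-positive libraries had 0.400, 0.526 and 0.0574 CPM with JQ1, against 6.39, 0.826 and 3.55 CPM with DMSO (log2 -3.34, adjusted p = 0.000819). Without replicate 1 of the VHL-positive DMSO libraries the second value was log2 -2.65, which still passed. CCN3 fell in VHL-negative cells (log2 -0.52, adjusted p = 0.0489). The CCN3 call held in 5 of 12 fits with a library left out, and was lost without replicate 2 or 3 of the VHL-negative JQ1 libraries, replicate 1 of the VHL-negative DMSO libraries, any VHL-positive JQ1 library or replicate 3 of the VHL-positive DMSO libraries (log2 -0.74 to -0.35 over the 12 fits, adjusted p up to 0.226). CCN4 did not pass in either line, and CCN6 was not tested.

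Among the other TEAD and VGLL genes, 3 of 6 were tested. TEAD2 fell in VHL-negative cells (log2 -1.38, edgeR adjusted p = 8.07e-05) and in VHL-positive cells (log2 -0.52, adjusted p = 0.0444). The VHL-positive call of TEAD2 was lost without replicate 3 of the VHL-negative JQ1 libraries, any VHL-positive JQ1 library, or replicate 1 or 3 of the VHL-positive DMSO libraries (log2 -0.65 to -0.37 over the 12 fits, adjusted p up to 0.219). TEAD3 fell in VHL-positive cells (log2 -0.48, adjusted p = 0.0189) and had log2 -0.07 in VHL-negative cells (adjusted p = 0.73). Without replicate 1 or 3 of the VHL-positive JQ1 libraries or replicate 3 of the VHL-positive DMSO libraries, the TEAD3 call was lost (log2 -0.56 to -0.32 over the 12 fits, adjusted p up to 0.132). VGLL4, which competes with YAP for TEAD, fell in VHL-negative cells (log2 -0.44, adjusted p = 0.0141), against log2 0.32 in VHL-positive cells (adjusted p = 0.0582). The VHL-negative call of VGLL4 was lost without replicate 2 of the VHL-negative JQ1 libraries (log2 -0.38, adjusted p = 0.0556) or replicate 1 of the VHL-negative DMSO libraries (log2 -0.37, adjusted p = 0.0642), and 4 of the 12 fits called the VHL-positive value (up to log2 0.41). The difference between the lines for VGLL4 was log2 -0.76 (adjusted p = 0.0481), and held only without replicate 1 of the VHL-negative JQ1 libraries among the 12 fits (adjusted p up to 0.122 in the others). Of the VGLL4 exon length, 23.7% is shared with genes on the other strand.

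Of 19 upstream kinases and adaptors, 6 rose, 4 fell and 9 did not pass with JQ1 in VHL-negative cells, and 8 rose, 1 fell and 10 did not pass in VHL-positive cells. Over all genes tested, 14.6% were called higher and 17.5% lower in VHL-negative cells, and 15.3% higher and 16.5% lower in VHL-positive cells. Angiomotin AMOT, a relative of AMOTL2 that binds YAP, rose by log2 0.54 in VHL-negative and log2 0.47 in VHL-positive cells (edgeR adjusted p = 0.00605 and 0.0117). Its relative AMOTL1 fell in VHL-negative cells (log2 -0.56, adjusted p = 0.00228), and FRMD6, a membrane adaptor of the pathway, fell there too (log2 -0.81, adjusted p = 0.00111). In VHL-positive cells AMOTL1 had log2 -0.08 (adjusted p = 0.633) and FRMD6 log2 -0.38 (adjusted p = 0.0811). Neither AMOTL1 (adjusted p = 0.131) nor FRMD6 (adjusted p = 0.264) passed for the difference between the lines. TAOK3, an upstream kinase, rose by log2 0.55 in VHL-negative and log2 0.63 in VHL-positive cells (adjusted p = 0.00243 and 0.000833). The scaffold WWC1 fell in VHL-negative cells (log2 -0.40, adjusted p = 0.0244), a call lost without replicate 3 of the VHL-negative JQ1 libraries (log2 -0.39, adjusted p = 0.0943) or replicate 3 of the VHL-negative DMSO libraries (log2 -0.34, adjusted p = 0.0808). The kinase MAP4K4 did not pass in either line (log2 -0.13 and 0.34, adjusted p = 0.488 and 0.0669).

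The genes whose levels ran most like those of CCN2, CCN1 and ANKRD1 were found by the root mean square distance of centred log2 CPM over 12 libraries, among 8065 genes. For CCN2 these were IRF7 (distance 0.397), MALAT1 (0.431), NEAT1 (0.519), CAPN5 (0.581) and TXNIP (0.585), where CCN2 itself varied by 1.29 around its mean. For CCN1, which varied by 0.436, they were POLM (0.134), PTPRS (0.170), PHF1 (0.175) and ODF2 (0.204). For ANKRD1, which varied by 1.15, they were PGK1 (0.141), WNK3 (0.193), BNIP3 (0.202), DDIT4 (0.203) and FAM162A (0.227). PGK1, a glycolytic enzyme gene, averaged 3098 CPM in VHL-negative JQ1, 1808 CPM in VHL-negative DMSO, 624 CPM in VHL-positive JQ1 and 435 CPM in VHL-positive DMSO libraries. The order of these 4 group means was that of ANKRD1, which follows from choosing PGK1 by its likeness to ANKRD1 and is no separate result.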

How the data were processed

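The authors deposited raw counts per Ensembl gene, 60663 in all, for 12 RCC4 libraries. Tools named in the submitters' processing notes are DESeq2 1.30.1, featureCounts, Subread 2.0.3 and STAR 2.7.8, with GRCh38 as the build. The sources used here give neither their order nor the annotation or strand setting. For JQ1 against DMSO, the authors' deposited tables give, for each gene, a fold change and SE on the log2 scale, a test score (the Wald statistic column), a p-value and adjusted p-value, and a mean of another (other) unit, counts divided by size factors. From these tables no value is printed.

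Counts were tested in R 4.3.3 with edgeR 4.0.16 (TMM scaling, filter on low counts by group, 1 mean per group over all 12 libraries, quasi-likelihood test), and p-values were adjusted by Benjamini-Hochberg over 20714 genes, with a threshold of 0.05. Levels are TMM-scaled CPM, and those per kilobase used GENCODE 29 exon lengths. The fit was tested on simulated data.

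The 10 genes and the other lists were chosen with earlier results of these data known. Besides the 10 genes and VHL, up to 4 genes per list with the smallest p in the VHL-negative JQ1 comparison and up to 4 for the difference between the lines were named, with the 5 genes most like CCN2, CCN1 and ANKRD1 among genes whose log2 CPM averaged 4 or more (prior count 2). For CCN1, 1 of those 5 is not reported here. Of the deposited IDs, 60462 had a symbol and 58395 were in GENCODE 29.

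Alternatives were DESeq2 1.42.0, DESeq2 size factors, total counts alone, other filters, protein-coding genes only, only the groups compared, a replicate block, fits without replicate 3 of the JQ1 libraries, and fits without each library in turn. Total counts of 15452949 to 32502310 per library set the counting precision. CCN2 had at least 777 counts in every library.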

Additional observations from a re-analysis of the deposited data

Results flagged for a closer look

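The JQ1 effect differed between the lines, by the test of the difference itself, in VHL and in 4 of the other genes named. Over all genes tested, 0.497% were called higher and 0.71% lower in that test. F3, TGFB2 and VGLL4 were named partly for their small p-values in it, so their calls follow in part from that choice. VHL RNA rose more in VHL-positive cells (difference log2 -1.29, edgeR adjusted p = 0.00161). For AXL the difference was log2 -0.83, with a larger fall in VHL-negative cells, and its call was lost in 11 of 12 fits with a library left out and with total counts alone. F3 gave log2 -1.33 and likewise fell more in VHL-negative cells, a call kept in all 12 of those fits. TGFB2 gave log2 2.90, since it fell in VHL-positive cells and had at most 17 counts in any VHL-negative library; its call was lost without replicate 3 of the VHL-negative JQ1 libraries (adjusted p = 0.0724). VGLL4 gave log2 -0.76, with a fall in VHL-negative cells and a value above 0 in VHL-positive cells that missed the threshold; its call was also lost in 11 of 12 fits.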

How the results depend on the processing

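Over the alternatives, 913 of 1040 values of the 10 genes kept their direction and side of the threshold (for the untested CCN2 values, they moved by less than the SD between libraries), 67 lost and 21 gained a call, and 39 changed sign. For the named list genes, 949 of 1035 were kept, 55 lost and 24 gained a call, and 7 changed sign. No value that passed the threshold in the reported fit changed sign. The causes were not tested.

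Without replicate 3 of the JQ1 libraries of both lines, which leaves 2 libraries in each JQ1 group, the genes called were 3957 for JQ1 in VHL-negative cells, 4160 for JQ1 in VHL-positive cells, 4814 for VHL status under JQ1 and 25 for the difference between the lines. Of the 10 genes, 3 were then called for VHL status under JQ1, 2 under DMSO and 0 for the difference. Of all genes, 5231 were then called for VHL status under DMSO. For VHL status under DMSO, total counts alone called 3 of the 10 genes and 6079 of all genes. The fit of only the groups compared called 3 of the 10 and 5457 of all, against 5 and 6357 in the reported fit. For the difference, where CCN2 is not counted, the genes gave 0 calls with total counts alone, beside 199 calls over all genes. Over all genes, 250 were called in the reported fit, 1336 with all low-count genes kept and 1283 in DESeq2. Total counts alone moved the median of all genes to log2 -0.14 for JQ1 in VHL-positive cells, 0.19 for VHL status under JQ1 and 0.11 for the difference. With all low-count genes kept the median was -0.16 for JQ1 in VHL-positive cells, -0.13 for VHL status under DMSO and 0.33 for the difference, and in DESeq2 -0.15, -0.14 and 0.35.

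Correlations of deviations between same-numbered libraries ran from -0.26 to 0.34, and between different-numbered libraries from -0.381 to 0.203. Same-numbered libraries gave 0.274, 0.335 and 0.009 for JQ1 in VHL-negative cells, and 0.243, 0.165 and 0.012 for VHL status under JQ1. Under DMSO they gave -0.26, -0.094 and -0.028 for VHL status. Whether replicate numbers pair the libraries is thus not settled, and the reported fit held no block. With the replicate number as a replicate block, 6612 genes and 6 of the 10 were called for JQ1 in VHL-negative cells (CCN2 not counted), 6423 and 6 for JQ1 in VHL-positive cells, 8406 and 6 for VHL status under JQ1, 6191 and 4 under DMSO, and 272 and 0 for the difference. The block ended the calls of AXL (adjusted p = 0.0569) and VGLL4 (0.0553) for the difference, TEAD1 for VHL status under DMSO (0.0641), CCN3 for JQ1 in VHL-negative cells (0.0571) and TEAD2 for JQ1 in VHL-positive cells (0.0609). Depth limits CCN5, which had 1 to 245 counts per library, more than TEAD4, which had 533 to 1447.

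Leaving out each library in turn gave 43 to 3510 of all genes for the difference and 0 to 1 of the 9 genes other than CCN2. For VHL status under DMSO those fits called 5008 to 7124 of all genes and 2 to 6 of the 10 genes. Values near 0 changed sign as follows. CCN1 for VHL status under DMSO was log2 0.025 with total counts alone, 0.017 with all low-count genes kept and 0.0068 in DESeq2, and -0.21 to 0.13 with a library left out. ANKRD1 for the difference was -0.0064 with all low-count genes kept and -0.18 to 0.18 with a library left out. LATS2 for JQ1 in VHL-negative cells was 0.035 with a filter of 1 CPM, 0.080 with protein-coding genes only, 0.0047 without replicate 3 of the JQ1 libraries, and -0.079 to 0.038 with a library left out. YAP1 for VHL status under JQ1 was 0.11 with total counts alone, 0.0063 with a filter of 1 CPM and 0.074 with protein-coding genes only, and -0.12 to 0.032 with a library left out. TEAD1 for the difference was 0.030 with protein-coding genes only. TEAD4 for JQ1 in VHL-negative cells was 0.042 with a filter of 1 CPM, 0.083 with protein-coding genes only, 0.0081 without replicate 3 of the JQ1 libraries, and -0.12 to 0.17 with a library left out. TEAD4 for JQ1 in VHL-positive cells was -0.014 with total counts alone and -0.12 to 0.24 with a library left out, and for VHL status under DMSO -0.29 to 0.063. TEAD4 for the difference was 0.010 with total counts alone, 0.030 with protein-coding genes only and -0.25 to 0.10 with a library left out. CCN5 for the difference was -0.030 without replicate 3 of the JQ1 libraries and -0.49 to 0.64 with a library left out. TEAD3 for JQ1 in VHL-negative cells was 0.019 with protein-coding genes only and -0.16 to 0.021 with a library left out, and WWC1 for JQ1 in VHL-positive cells -0.093 to 0.028.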
